A study of Populus davidiana with 6 samples.

Results

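Genes for which the deposited transcript lists hold 15 or more transcripts were described in leaves of Populus davidiana, an Asian aspen. Of 40537 gene identifiers, 36380 carry a POPTR identifier of the annotation, and 331 of these list at least 15 transcripts. The set was narrowed to a gene span (first to last base, introns included) under 15000 bp, which left out 31 genes. The summed level also had to reach 1 FPKM in 3 or more of the 6 libraries, which left out another 4. The resulting 296 genes are 1.31% of the 22559 genes that passed the same filter on level, and they hold 5852 of the 112919 listed transcripts. FPKM counts fragments per kilobase of a transcript, relative to all fragments of its library. The choice used the number of listed transcripts, the span and the presence of a signal, and no difference between air-dried and control leaves.

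Both groups were leaves of Odae19, a cultivar labelled drought tolerant, taken from in vitro seedlings of about 6 weeks. The 3 air-dried libraries came from plants taken out of the medium, rinsed and then kept for some 10 min in the open air. The labels describe the 3 control libraries only as controls and do not say whether those plants were handled likewise, so the effects of handling and of drying cannot be told apart. Poly(A) RNA was read as paired ends of 100 bp in libraries whose kit does not mark strand, and the design compares the leaf transcriptome with and without air-drying. Nothing in the labels says that replicates came from separate plants, so the spread that the p-values measure may be technical. The files hold no gene names (0 in 112919 lines), so leaf marker genes could not be looked up and functions are not given. Depth in reads is not known from FPKM.

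Plant genes commonly give rise to several transcripts through alternative splicing, in which introns are retained or splice sites exchanged, and through alternative starts and ends of transcription. Some of these transcripts encode different proteins, and others carry early stop codons and are degraded. Short-read assembly builds a set of transcripts that accounts for the observed fragments and splice junctions, and the level of each is then estimated from reads that many of them share. A long list is therefore a property of the assembly as well as of the gene. Splicing in plants is known to respond to light, temperature and water stress.

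The long lists were almost wholly made of assembled transcripts. Of the 5852 listed transcripts, 5368 (91.7%) carry the status of assembled from reads, and 484 that of annotated. Over all transcripts of the series 59.5% have the assembled status. A single annotated transcript was listed for 220 of the 296 genes, 2 for 44 genes and 3 or more for 32 genes, with up to 20. The identifiers of 5353 assembled transcripts end in the letter j, which the Cufflinks suite gives to a transcript that shares a splice junction with an annotated one. The files themselves do not define this letter. Only 8 ended in the letter for another exonic overlap, 3 in the sign for a complete match, and 4 had no such ending.

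The number of listed transcripts ran from 15 to 64, with a median of 18, against a median of 3 for all tested genes. There were 194 genes with 15 to 19 transcripts, 87 with 20 to 29 and 15 with 30 or more. The median span was 7538 bp, against 3521 bp for all tested genes, and the shortest gene spanned 1803 bp. Within the set, span and listed number were nearly unrelated (Spearman's rho across the 296 genes 0.047). At the threshold, the 51 genes with 15 transcripts had a median level of 9.60 FPKM, and the 79 genes with 14 transcripts, left out, had 14.3 FPKM. The longest gene inside the limit spanned 14884 bp and the shortest one outside it 15022 bp. The 4 genes that were too low averaged 0.759 to 0.803 FPKM, and the lowest gene kept averaged 1.03 FPKM.

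Starts and ends differed less than the lists were long. A gene had a median of 2 distinct starts and 3 distinct ends, counted in genome order, and all transcripts shared both in 24 genes. In those 24 genes the listed transcripts can differ only in what lies between the ends. Among assembled transcripts, 1642 (30.6%) had the same first and last base as an annotated transcript of the gene. Where starts differed, their median range was 1333 bp, and where ends differed it was 1517 bp. The 296 genes lay on all 19 chromosomes (293 genes) and on unplaced scaffolds (3 genes). On chromosome 18 they made up 2.47% of tested genes, the highest share, and on chromosome 19 0.497%, the lowest. Another gene of the files overlapped 43 of the 296, in 34 cases on the opposite strand, where reads cannot be assigned to one gene by strand.

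The 5 genes with the most listed transcripts each had 1 annotated transcript. Coordinates are as the files give them, on a genome build that is not given in the sources used here. POPTR_0020s00220.r1 lists 64 transcripts on the plus strand of scaffold 20 (202947 to 211425). POPTR_0003s10930.r1 lists 61 on the minus strand of chromosome 3 (11781983 to 11788832), and POPTR_0008s06970.r1 lists 59 on the minus strand of chromosome 8 (4209838 to 4220383). POPTR_0010s12210.r1 lists 58 on the minus strand of chromosome 10 (12265307 to 12279027). POPTR_0009s06980.r1 lists 57 on the plus strand of chromosome 9 (6630819 to 6643824) and overlaps 1 other gene. In all 5 the annotated transcript carried almost nothing, and the assembled ones 100.0% of the summed level in each library, to 3 digits.

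The summed level of the 296 genes was ordinary for expressed genes and nearly the same in both groups. The median was 11.1, 11.9 and 12.2 FPKM in air-dried 1, 2 and 3, against 10.9, 11.6 and 12.2 FPKM in controls 1, 2 and 3. The groups overlap, and the libraries with the lowest medians are air-dried 1 and control 1. Over all tested genes the medians were 11.9, 11.5 and 11.9 FPKM in the air-dried libraries and 11.4, 11.7 and 11.3 FPKM in the controls. Averaged over the 6 libraries, 46 genes were under 5 FPKM, 174 between 5 and 20, 66 between 20 and 100, and 10 reached 100 FPKM. All 6 libraries reached 1 FPKM in 294 of the 296 genes.

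**Figure D1:**
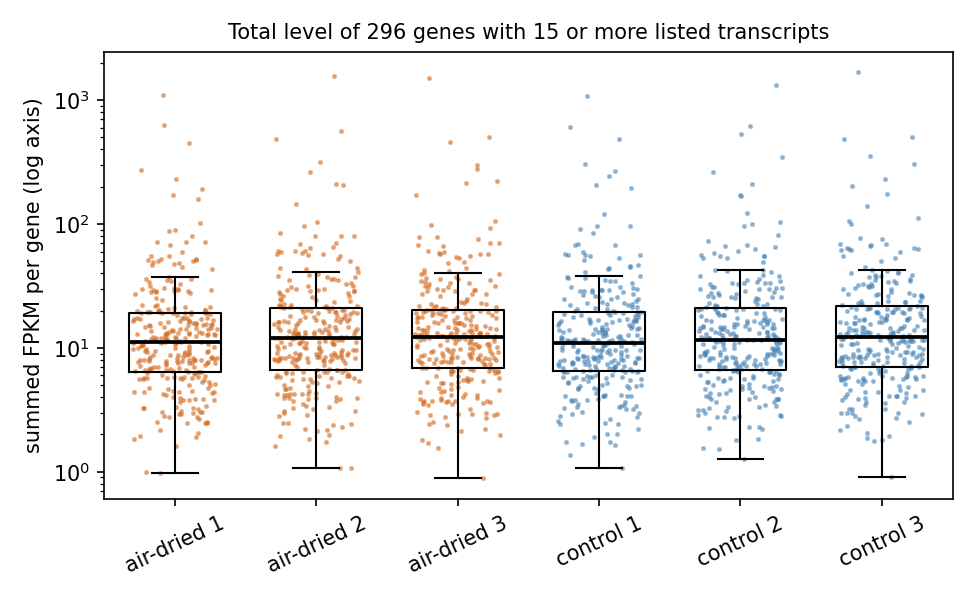
Summed FPKM per gene (log axis) of the 296 genes in each library, with 1 point per gene, boxes from the lower to the upper quartile and the median as a black line; whiskers reach to 1.5 box heights, computed in FPKM. The medians lie between 10.9 FPKM in control 1 and 12.2 FPKM in control 3 and air-dried 3, and the air-dried libraries (left) cover the same range as the controls (right).

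POPTR_0011s11390.r1 (minus strand of chromosome 11, 14141050 to 14146189, 20 transcripts) had the highest level. Its summed level was 1111, 1570.5 and 1503 FPKM in air-dried 1, 2 and 3, against 1089.9, 1327 and 1694 FPKM in controls 1, 2 and 3. The groups overlap, and the log2 difference of 0.03 had a 95% interval of −0.51 to 0.58. POPTR_0004s17590.r1 followed (plus strand of chromosome 4, 17726871 to 17729169, 19 transcripts, 8 of them annotated). It averaged 565 ± 61.3 FPKM in air-dried and 569 ± 72.5 FPKM in control leaves (SD, n = 3 each). POPTR_0001s45360.r1 was the third (minus strand of chromosome 1, 45852754 to 45857125, 16 transcripts). It averaged 466 ± 21.3 FPKM in air-dried and 509 ± 24.7 FPKM in control leaves (SD, n = 3 each), a difference that did not pass the test (limma adjusted p = 0.597).

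Few of the 296 genes changed in summed level after air-drying. In limma's test on log2(FPKM + 1) over all 22559 genes, 1 of the 296 was higher and 2 were lower in air-dried leaves at an adjusted p under 0.05. That is 3 genes (1.01%), where 4.3% of all tested genes were called, 3.61% higher and 0.696% lower. Without adjustment, 28 of the 296 had a p under 0.05 (9.46%, against 16.5% of all tested genes). The 3 calls depended on the libraries: none was left without control 2, where 12 of the 296 had an unadjusted limma p under 0.05, and 1 without air-dried 3. Calls over all 22559 genes fell as well, from 971 to 536 without control 2 and to 477 without air-dried 3. Without control 2 the log2 differences of the 3 genes were 0.78, −0.54 and −0.70, near those in all 6 libraries. Control 3 and air-dried 1, which earlier results of these data set apart from the other libraries, were also left out together. Of the 296 genes, 2 were then higher and 1 lower, and 1327 of all 22559 genes were called. That fit sets air-dried 2 and 3 against controls 1 and 2, so in it air-drying cannot be told apart from a division of the libraries that no label names (air-dried 2, air-dried 3 and control 3 against the other libraries, described with the leading transcripts).

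The differences were small as well as rarely called. None of the 296 genes (0) differed by 1 or more on the log2(FPKM + 1) scale, where 3.77% of all tested genes did. In whole leaves, fewer cells of a type and less RNA per cell cannot be told apart. A difference of at least 0.5 was seen in 5 genes (1.69%, against 10.5% of all tested genes). The median log2 difference was −0.01 over the 296 genes and 0.00 over all tested genes, with 141 above 0 and 155 below. The 95% interval of the difference lay within ±1 in 293 genes and within ±0.5 in 237. In 50 genes (16.9%) the 3 air-dried libraries lay entirely above or entirely below the 3 controls, 25 each way, against 22.6% of all tested genes.

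**Figure D2:**
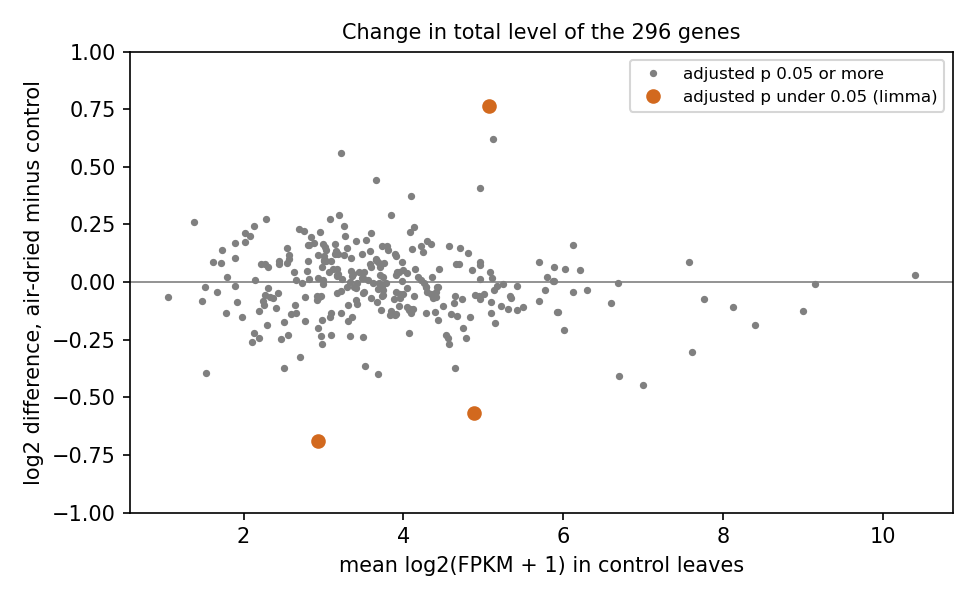
Log2 difference in summed level, air-dried minus control, against the mean log2(FPKM + 1) in control leaves, with 1 point per gene. The 3 genes with a limma adjusted p under 0.05 are in orange, at 0.76, −0.57 and −0.69, and every one of the 296 points lies between −0.69 and 0.76.

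Among the 22016 tested genes with fewer than 15 listed transcripts, the share of genes called was lower the more transcripts were listed. Tested genes with 15 or more transcripts that identifier or span kept out of the 296 are in none of these classes. They include genes called higher, so the order is not shown for the whole table. Among tested genes with a single transcript 8.83% were called, among those with 2 to 4 transcripts 3.59%, with 5 to 9 transcripts 1.46%, and with 10 to 14 transcripts 1.20%. In the 296 genes it was 1.01%. Higher calls were 7.76%, 2.91%, 0.973% and 1.12% of genes in those classes and 0.338% of the 296. Higher calls thus broke the order between 5 to 9 and 10 to 14 transcripts. Lower calls did not follow the order in the 296 genes: they were 1.07%, 0.678%, 0.487% and 0.08% in those classes and 0.676% of the 296, which is 2 genes. The differences between classes were not tested. Other quantities differed between the classes too. The median spread between libraries of one group (SD of log2 values) was 0.218, 0.141, 0.128 and 0.130 in those classes and 0.126 in the 296 genes. The median absolute difference between the groups was 0.221, 0.123, 0.0999 and 0.0965, and 0.0916 in the 296 genes. The median span was 1386, 3466, 5323 and 7146 bp, and 7538 bp in the 296 genes. The median of the mean level was 7.09, 12.5, 14.5 and 13.1 FPKM, and 11.6 FPKM in the 296 genes. The part of span, level and spread in the called shares was not tested.

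POPTR_0019s05430.r1 was the gene that rose. It lies on the minus strand of chromosome 19 (5775358 to 5780392) and lists 29 transcripts, 14 annotated and 15 assembled. Its summed level was 51.2, 59.7 and 57.6 FPKM in air-dried 1, 2 and 3, against 29.5, 33.6 and 34.9 FPKM in controls 1, 2 and 3. Every air-dried library lay above every control. The log2 difference was 0.76 (SE 0.098, limma adjusted p = 0.0107), and the adjusted p was 0.0517 without air-dried 2, 0.0674 without air-dried 3 and 0.0524 without control 2. With the libraries rescaled to a common sum it was 0.932.

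The transcripts that carried this gene differed between libraries of the same group. The annotated transcript POPTR_0019s05430.9 was at 32.6, 5.70 and 0.00519 FPKM in air-dried 1, 2 and 3, against 11.6, 10.4 and 22.1 FPKM in controls 1, 2 and 3. The assembled POPTR_0019s05430.14.r7.j was at 1.16, 34.1 and 38.5 FPKM in air-dried 1, 2 and 3, against 10.3, 9.27 and 3.39 FPKM in the controls. Air-dried 1 thus had the annotated transcript on top and air-dried 2 and 3 the assembled one. The assembled share was 29.1%, 85.2% and 85.6% in air-dried 1, 2 and 3, against 37.2%, 46.0% and 34.2% in controls 1, 2 and 3. Air-dried 1 lies below all controls here, and the difference did not pass the test (limma adjusted p = 1.00). With annotated transcripts alone, the direction of the gene turned, to a log2 difference of −0.46 that did not pass (limma adjusted p = 0.821).

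POPTR_0003s09960.r1 fell after air-drying. It lies on the plus strand of chromosome 3 (11107751 to 11111356) and lists 20 transcripts, 11 of them annotated. Its summed level was 19.4, 17.9 and 19.5 FPKM in air-dried 1, 2 and 3, against 28.0, 29.6 and 27.9 FPKM in controls 1, 2 and 3. The groups do not overlap, and the log2 difference was −0.57 (SE 0.070, limma adjusted p = 0.00883). The call was lost without control 2 (limma adjusted p = 0.0551) and with a replicate block in the fit (0.0611). It was also lost with annotated transcripts alone (0.0901) and with the libraries rescaled to a common sum (0.932). Its effective number of transcripts was 6.49, 4.88 and 4.92 in air-dried 1, 2 and 3, against 8.98, 7.48 and 6.56 in the controls. All air-dried values lie below the lowest control, by a small margin for air-dried 1, and the entropy difference of −0.50 bits had a limma adjusted p of 1.00. The number of its transcripts at 1 FPKM or more was 6, 4 and 4 in the air-dried libraries, against 9, 8 and 7 in the controls.

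POPTR_0001s12470.r1 also fell. It lies on the plus strand of chromosome 1 (9687046 to 9692901) and lists 1 annotated and 16 assembled transcripts. Its summed level was 3.31, 4.23 and 3.70 FPKM in air-dried 1, 2 and 3, against 6.60, 6.52 and 6.78 FPKM in controls 1, 2 and 3. The groups do not overlap, and the log2 difference was −0.69 (SE 0.095, limma adjusted p = 0.0142). The call was lost without air-dried 3 (limma adjusted p = 0.0773) and without any one control. Without controls 1, 2 and 3 in turn the limma adjusted p was 0.0633, 0.0682 and 0.0575. The call was also lost without control 3 and air-dried 1 together (0.0559) and with a replicate block in the fit (0.0675). With the libraries rescaled to a common sum the limma adjusted p was 0.932. Its effective number averaged 3.52 ± 0.678 in air-dried and 3.40 ± 0.792 in control leaves (SD, n = 3 each). The leading transcript was not the same one in all libraries of either group.

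Few of the listed transcripts were used at a time. The effective number of transcripts is 2 to the power of the Shannon entropy (in bits) of the transcripts' shares of the gene's summed FPKM. It equals the number of transcripts that, used equally, would give the same entropy. Its median over the 296 genes was 3.98, 3.95 and 4.25 in air-dried 1, 2 and 3, against 4.0, 4.23 and 4.12 in controls 1, 2 and 3. The groups overlap, at 4.06 ± 0.165 in air-dried and 4.12 ± 0.115 in control leaves (mean ± SD of the library medians, n = 3 each). Among the 15710 other genes with at least 2 transcripts and 1 FPKM in every library, the median ran from 1.85 to 1.88. A longer list admits a higher number, so this comparison is partly fixed by the choice of genes.

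**Figure D3:**
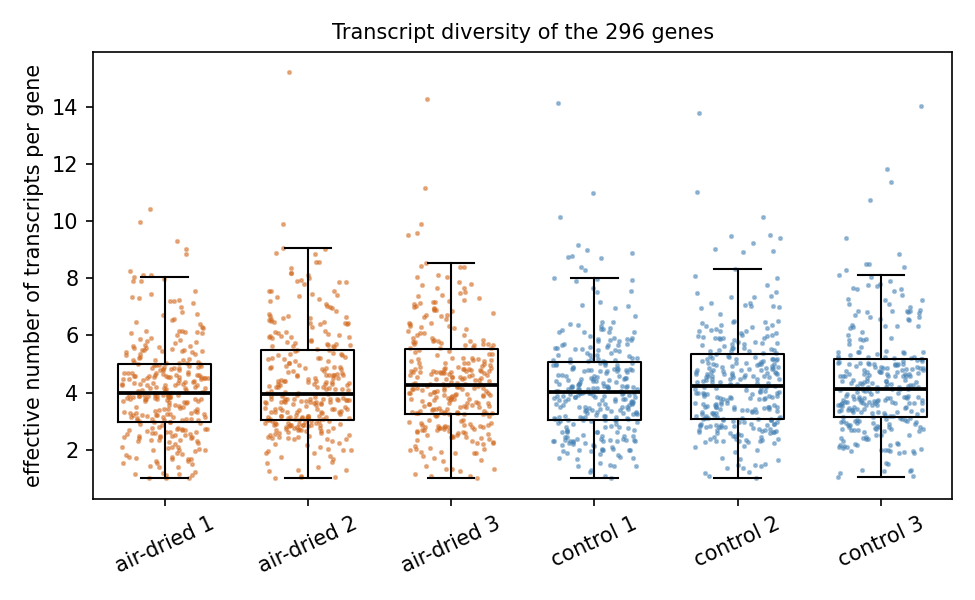
Effective number of transcripts of the 296 genes in each library, with 1 point per gene, boxes from the lower to the upper quartile, the median as a black line and whiskers to 1.5 box heights. The medians lie between 3.95 in air-dried 2 and 4.25 in air-dried 3, so both ends of the range are air-dried libraries.

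A gene had a median of 3 transcripts at 1 FPKM or more and of 6 at 0.1 FPKM or more in each library of both groups. Transcripts under 0.001 FPKM made up 64.3%, 61.6% and 59.9% of the listed ones in air-dried 1, 2 and 3, against 62.9%, 60.9% and 60.8% in controls 1, 2 and 3. Over all transcripts of the series this share was 43.4% to 46.6%. Of the 5852 listed transcripts, 2246 (38.4%) never reached 0.1 FPKM in any library and 3815 (65.2%) never reached 1 FPKM. At the other end, 421 (7.19%) were at 1 FPKM or more in all 6 libraries. Annotated transcripts reached this more often (77 of 484, 15.9%) than assembled ones (344 of 5368, 6.41%), a difference given without a test. Between 5 and 25 of the 5852 transcripts were listed at exactly 0 in a library, and such a 0 need not mean that no reads were present.

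Averaged over the 6 libraries, the effective number ran from 1.08 to 13.6, with a median of 4.08. It was between 2 and 8 in 273 genes, under 2 in 14 and over 10 in 1. The 51 genes with 15 transcripts had a median of 4.08, and the 79 genes with 14, just outside the set, 3.63. Longer lists had a somewhat higher number: the median was 3.91 for genes with 15 to 19 transcripts, 4.43 for 20 to 29 and 5.65 for 30 or more. Spearman's rho with the listed number was 0.32 and with the mean level 0.36 across the 296 genes, which are not independent replicates. By level, the median effective number was 3.22 in genes under 5 FPKM, 4.19 between 5 and 20 FPKM, 4.71 between 20 and 100 FPKM, and 3.44 in the 10 genes above that.

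**Figure D4:**
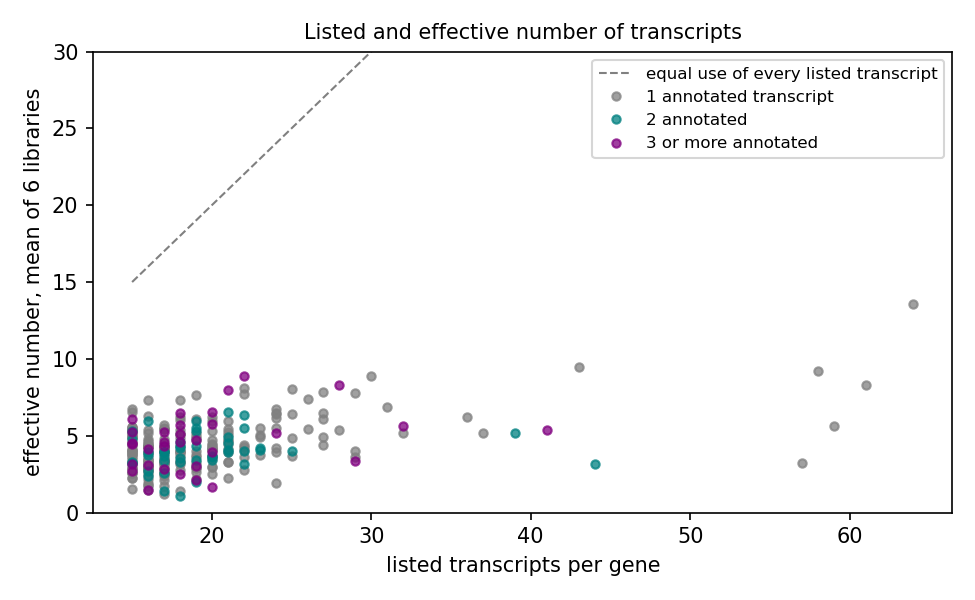
Effective number of transcripts (mean of 6 libraries) against the number listed, with 1 point per gene, coloured by the number of annotated transcripts; the dashed line is equal use of every listed transcript. The line is the largest number possible, so no point can lie above it. All 296 points lie below it, with the highest at 13.6 for a gene of 64 listed transcripts.

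The 3 genes with the highest effective number have long lists. POPTR_0020s00220.r1, with 64 listed transcripts, had an effective number of 9.95, 15.2 and 14.3 in air-dried 1, 2 and 3, against 14.1, 13.8 and 14.0 in controls 1, 2 and 3. Air-dried 1 is the low library, with its leading transcript at 32.9% of the level, where the other 5 libraries had 14.7% to 18.5%. POPTR_0010s12210.r1 averaged 8.67 ± 2.18 in air-dried and 9.80 ± 1.76 in control leaves (SD, n = 3 each). POPTR_0007s08330.r1 (plus strand of chromosome 7, 6986473 to 6997193, 43 transcripts) averaged 9.66 ± 0.712 in air-dried and 9.35 ± 2.22 in control leaves (SD, n = 3 each). None of these 3 genes passed the test for a difference in entropy (limma adjusted p = 1.00 each). A long list alone did not give a high number: POPTR_0009s06980.r1, with 57 transcripts, averaged 3.43 ± 0.621 in air-dried and 3.03 ± 0.235 in control leaves (SD, n = 3 each).

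The 3 genes with the lowest effective number were led by 1 annotated transcript in every library. POPTR_0007s05210.r1 (plus strand of chromosome 7, 3359731 to 3363434) lists 18 transcripts, and POPTR_0007s05210.1 carried 98.4%, 98.8% and 98.9% of the level in air-dried 1, 2 and 3, against 99.7%, 99.1% and 98.9% in controls 1, 2 and 3. Its summed level averaged 257 ± 24.4 FPKM in air-dried and 277 ± 24.3 FPKM in control leaves (SD, n = 3 each). POPTR_0006s11920.r1 (minus strand of chromosome 6, 9111777 to 9115707) lists 17 transcripts, and its effective number averaged 1.14 ± 0.106 in air-dried and 1.26 ± 0.0401 in control leaves (SD, n = 3 each). POPTR_0001s14410.r1 (minus strand of chromosome 1, 11295418 to 11305423) lists 17, and its number averaged 1.42 ± 0.193 in air-dried and 1.35 ± 0.138 in control leaves (SD, n = 3 each).

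No gene of the 296 passed the test for a change in diversity. Limma on the entropy of 16004 genes, which include 294 of the 296, called 0 genes (0% of all tested, 0 of the 294). Without adjustment, 19 of the 294 had a p under 0.05 (6.46%, against 4.41% of all genes tested). The groups did not overlap in 33 genes (11.2%), with the air-dried libraries above in 14 and below in 19, where 9% of all genes tested had separate groups. The median entropy difference was −0.01 bits, and single genes ran from −0.73 to 0.92 bits. These data bound the change loosely: the 95% interval had a median half-width of 0.56 bits and lay within ±0.5 bits in 59 genes and within ±1 bit in 226. In effective numbers, 28 genes were higher by at least 1 and 26 lower by at least 1 in air-dried leaves.

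Most of the level of these genes was carried by assembled transcripts, in both groups alike. The mean assembled share per gene was 85.1%, 84.5% and 86.0% in air-dried 1, 2 and 3, against 85.2%, 84.9% and 84.1% in controls 1, 2 and 3. The groups overlap. In the 15233 other genes with transcripts of both kinds the mean was 49.5% to 51.1%. The long lists were almost wholly made of assembled transcripts, so this comparison too is partly fixed by the choice of genes. Pooled over the FPKM of all 296 genes, which gives weight to the highest ones, the share was 71.8 ± 2.37% in air-dried and 72.7 ± 2.80% in control leaves (SD, n = 3 each). Summed over annotated transcripts alone, 118 of the 296 genes reached 1 FPKM in at least 3 libraries.

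The assembled share was mostly near its upper end. It was above 99% in all 6 libraries in 109 genes, under 50% in all 6 in 12 and under 10% in all 6 in 3. Genes with 1 annotated transcript had a median share of 98.9%, those with 2 had 94.5%, and those with 3 or more had 57.6%. By level, the mean share was 89.4% in genes under 5 FPKM, 86.2% between 5 and 20 FPKM, 83.0% between 20 and 100 FPKM, and 56.0% in those above. The medians were 100.0%, 96.7%, 97.1% and 76.1%. The highest class holds 10 genes, of which 4 had a mean share between 1.03% and 10.2% and the other 6 between 71.8% and 100%. These medians and means are descriptions, with no test.

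The 3 genes with the lowest assembled share were all highly expressed. POPTR_0007s05210.r1 had 1.60%, 1.25% and 1.06% in air-dried 1, 2 and 3, against 0.308%, 0.942% and 1.02% in controls 1, 2 and 3. POPTR_0006s11920.r1 had 1.98%, 0.698% and 4.08% in air-dried leaves, against 6.40%, 3.80% and 3.77% in control leaves. POPTR_0001s45360.r1 had 2.19%, 6.48% and 8.46% in air-dried leaves, against 2.32%, 3.05% and 2.40% in control leaves. In POPTR_0007s05210.r1 every air-dried value is above every control, and in the other two the groups overlap. None of the 3 passed the test (limma adjusted p = 1.00 each). At 100.0% in every library, tied with others and taken by identifier, stood POPTR_0001s00830.r1 (minus strand of chromosome 1, 682423 to 690477, 37 transcripts), POPTR_0001s08650.r1 (minus strand of chromosome 1, 6598240 to 6610436, 25 transcripts) and POPTR_0001s10690.r1 (plus strand of chromosome 1, 8310394 to 8315410, 23 transcripts). Their summed levels in air-dried leaves averaged 14.3, 3.20 and 37.8 FPKM, against 14.0, 3.59 and 39.7 FPKM in control leaves.

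The test for a change in assembled share also called none of the 296 genes. Limma on the share in percent, over 15527 genes with transcripts of both kinds, called 0 genes (0% of all tested, 0 of 294 of the 296). Without adjustment, 14 of the 294 had a p under 0.05 (4.76%, against 3.77% of all genes tested). The groups were separate in 22 genes (7.48%, against 7.77% of all genes tested), with the air-dried libraries above in 13 and below in 9. The difference was under 1 percentage point in 137 genes and at least 10 points in 35, of which 19 were higher and 16 lower in air-dried leaves. In the 109 genes with a share above 99% in all 6 libraries, the upper limit of 100% alone holds the difference under 1 point. The median 95% interval had a half-width of 6.0 points. Genes at that limit have narrow intervals, such as −0.166 to 0.166 points in POPTR_0001s00830.r1, so neither value measures how steady the share was.

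Single transcripts varied far more between libraries of one group than the summed level of their genes. The median SD within groups was 0.126 on the log2(FPKM + 1) scale for the summed level of the 296 genes, and 0.147 for all tested genes. It was 0.592 for the 1068 transcripts that reached 1 FPKM in at least 3 libraries, and 0.399 for the leading transcript of each gene. Across the 296 genes, the correlation of log2 summed levels was 0.986 to 0.994 within groups and 0.981 to 0.990 between groups. Across the 1068 transcripts the values were 0.592 to 0.781 within groups and 0.586 to 0.780 between groups. These correlations are across genes or transcripts, which are not independent replicates.

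Many transcripts were estimated at 1 FPKM or more in one library and close to 0 in another of the same group. Among transcripts of the 296 genes with at least 1 FPKM in some air-dried library, 685 of 1637 (41.8%) were under 0.01 FPKM in another air-dried library. In the controls this held for 693 of 1625 (42.6%). In tested genes with 2 to 4 transcripts the shares were 17.3% in air-dried and 15.8% in control leaves. The leading transcript was the same one in all 3 air-dried libraries in 127 genes and in all 3 controls in 129. It held in both groups in 82 genes, and in all 82 it was the same transcript in air-dried and control leaves (0 genes with a steady but different one). In 105 genes at least 3 different transcripts led in some library.

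Pairs of libraries shared their leading transcript in 160 to 188 of the 296 genes within a group and in 157 to 188 between groups. The 3 highest counts of all pairs came from air-dried 2, air-dried 3 and control 3: 188 for both air-dried libraries, 188 for air-dried 2 and control 3, and 186 for air-dried 3 and control 3. Among air-dried 1, control 1 and control 2 the division was less clear. The counts were 181 for air-dried 1 and control 2, 178 for both controls, and 163 for air-dried 1 and control 1. Pairs across the division shared 157 to 175, a range that holds the 163. The leading transcript took a median of 45.6%, 43.5% and 42.9% of the level in air-dried 1, 2 and 3, against 44.3%, 43.2% and 44.9% in controls 1, 2 and 3. It was an assembled one in all 6 libraries in 200 genes and an annotated one in all 6 in 23.

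The gene with the highest level showed this division of the libraries. Its assembled transcript POPTR_0011s11390.1.r19.j was at 53.5, 716.5 and 658 FPKM in air-dried 1, 2 and 3, against 64.8, 98.7 and 784 FPKM in controls 1, 2 and 3. It was high in air-dried 2, air-dried 3 and control 3 and low in the other three libraries, while the summed level differed by less than 2-fold between any of them. The transcript POPTR_0011s11390.1.r4.j had the opposite order, at 494, 137 and 238 FPKM in air-dried 1, 2 and 3, against 361, 532 and 139 FPKM in controls 1, 2 and 3. A like exchange was seen in part in POPTR_0001s10690.r1. Its transcript POPTR_0001s10690.1.r9.j was at 19.6, 11.8 and 10.1 FPKM in air-dried 1, 2 and 3, against 19.4, 17.1 and 8.73 FPKM in controls 1, 2 and 3. POPTR_0001s10690.1.r16.j was at 5.79, 12.9 and 15.1 FPKM in the air-dried libraries, against 8.04, 12.6 and 17.4 FPKM in the controls. For this transcript control 2 lay close to air-dried 2, so the division was not clear. POPTR_0011s11390.r1 and POPTR_0001s10690.r1 were singled out for this pattern after their values were seen, from the genes named by rule. Not every named gene followed it. POPTR_0019s05430.14.r7.j was at 34.1 and 38.5 FPKM in air-dried 2 and 3 but at 3.39 FPKM in control 3. The labels name no such division.

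**Figure D5:**
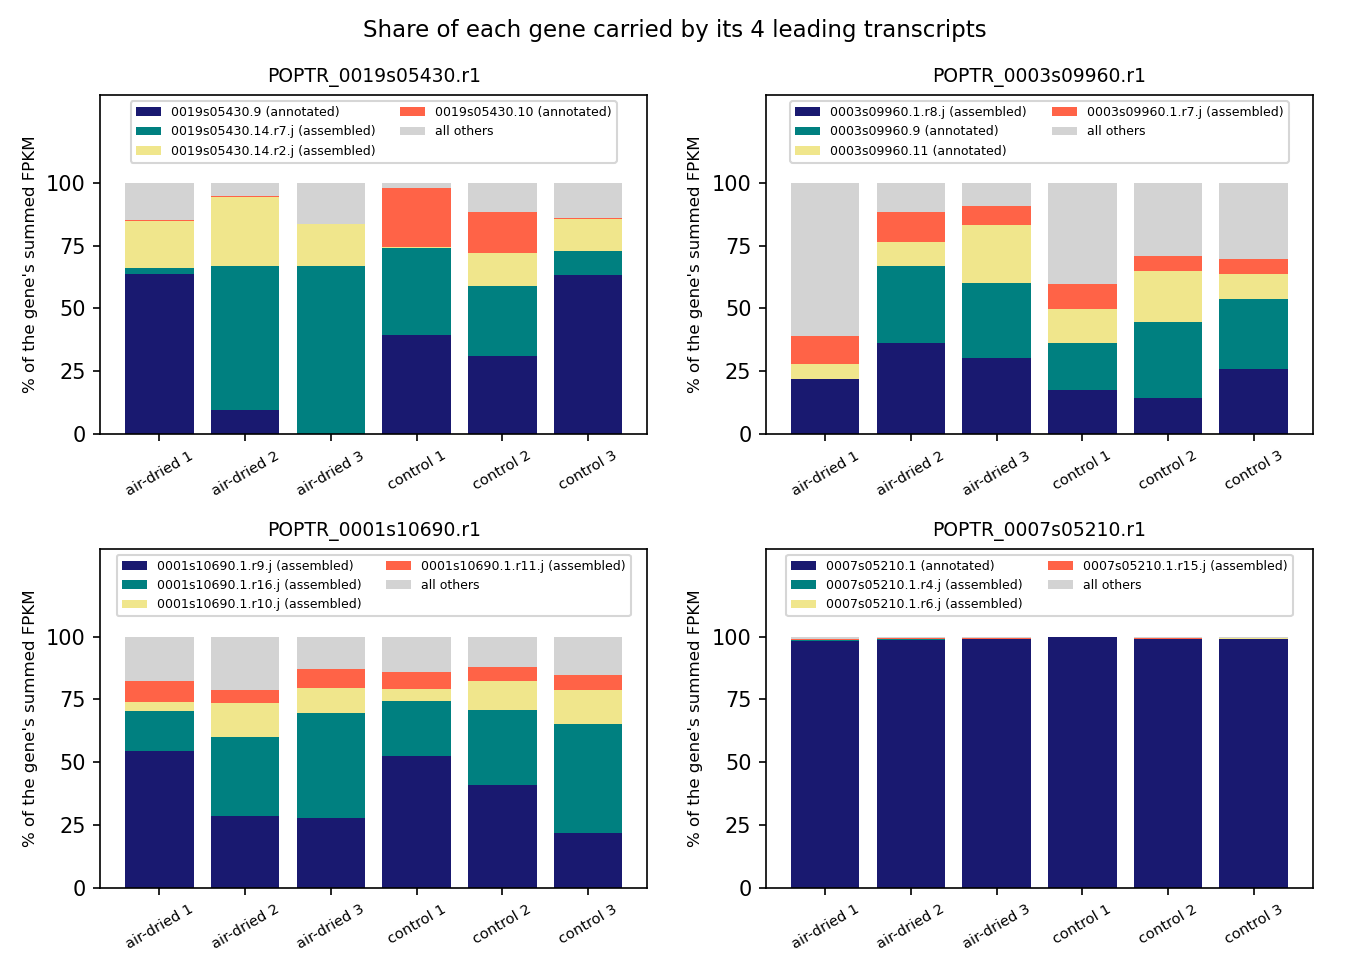
Percent of a gene's summed FPKM carried by its 4 leading transcripts (by mean share) and by all others in each library, for 4 of the 296 genes, with air-dried libraries left and controls right. POPTR_0007s05210.r1 was led by 1 annotated transcript at 98.4% to 99.7% in every library, whereas in POPTR_0019s05430.r1 the assembled share was 29.1% in air-dried 1 and 85.2% and 85.6% in air-dried 2 and 3.

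No single transcript of the 296 genes passed the test in all 6 libraries. Of 41109 transcripts tested for level with limma, 0.866% were called (0.778% higher and 0.0876% lower), and of the 1068 from these genes, which belong to 289 of the 296, 0 were called. Without adjustment 85 had a p under 0.05 (7.96%, against 8.45% of all transcripts tested), and the lowest adjusted p was 0.0548. Without control 3 and air-dried 1 the same test called 19 of the 1068, 10 higher and 9 lower, and 1357 of all 41109. As for summed level, the 4 libraries left divide in the same way by treatment and by the unlabelled division, so these calls cannot be assigned to air-drying. In the test on a transcript's share of its gene, over 40275 transcripts with a mean share of at least 5%, 0 were called (0% of all tested, 0 of 1385 from 294 of the 296 genes). Without adjustment 72 of the 1385 had a p under 0.05 (5.20%, against 4.07% of all), and the lowest limma adjusted p was 0.437. Transcripts of one gene share reads and their shares sum to the whole, so they are not independent.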

How the data were processed

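The deposited values are FPKM, 1 per transcript and library, made by the authors, per the file headers. FastQC, TopHat and Cufflinks appear in the submitters' processing notes with neither version nor role; genome build, annotation version and filters are not given there. Such values depend on how reads shared by overlapping transcripts were divided, and depth cannot be recovered from them.

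FPKM was summed per gene identifier. Limma 3.58.1 (lmFit, eBayes with trend, 2-sided, Benjamini-Hochberg adjustment) in R 4.3.3 was run with group as the sole term on 5 readouts over the whole table: log2(summed FPKM + 1) and log2(transcript FPKM + 1), with 1 FPKM in at least 3 libraries required; entropy and assembled share per gene, with 1 FPKM in all 6 libraries; and the arcsine of the square root of transcript shares. Intervals are limma's 95% intervals. Each fit was also run on simulated rows with independent normal noise. These do not model the jumps of single transcripts between libraries or the unlabelled division of the libraries, so nothing is concluded from them. Alternatives covered pseudocount, filter, scaling, transcript choice, the replicate block and left-out libraries.

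Named genes are those with the most transcripts (5), the highest level (3), the highest and lowest effective number and assembled share (3 each), and the called ones. The members and lists were chosen with earlier results of these data known. Function lists and cell type markers could not be filled without gene names.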

Additional observations from a re-analysis of the deposited data

How the results depend on the processing

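For summed level, 12 of 17 alternatives gave a count of called genes among the 296 within 1.5 times the 3 reported. Such a count need not hold the same genes. Without control 3 it was again 3, but POPTR_0001s12470.r1 was not among them (limma adjusted p = 0.0575). The count was 1 with a replicate block (POPTR_0003s09960.r1 and POPTR_0001s12470.r1 lost their calls, at limma adjusted p = 0.0611 and 0.0675), 0 with libraries rescaled to a common sum and 1 with annotated transcripts alone, where 118 genes were tested. That 1 gene was higher in air-dried leaves and was none of the 3 reported. Over all 22559 genes, 557 were called with the replicate block and 453 with the common sum, against 971 in the main fit. With annotated transcripts alone, 538 of 17162 genes were called. Leaving out 1 library gave 0 to 3, and 477 to 693 calls over all 22559 genes. Rescaling moved the median log2 difference of all tested genes to 0.31 and that of the 296 to 0.30, so the changes count relative to that shift. The turned direction of POPTR_0019s05430.r1 came with annotated transcripts alone (−0.46). Its limma adjusted p ran from 0.00833 to 0.932 over 17 alternatives, that of POPTR_0003s09960.r1 from 0.00454 to 0.932 over 17 and that of POPTR_0001s12470.r1 from 0.012 to 0.932 over 16, each highest with the common sum. For diversity, assembled share and transcript share the count among the 296 was 0 in all 12, 11 and 10 alternatives. For transcript level, with 0 of 1068 reported, it was 19 without control 3 and air-dried 1, where 1357 of all 41109 were called. In that fit air-drying and the unlabelled division of the libraries cannot be told apart. The count was 2 with a pseudocount of 5 FPKM (348 of all called) and 0 to 2 with 1 library left out (99 to 223 of all called). With no filter it was 4 of 5851, and 343 of all 101622 were called. The main fit called 356 of all 41109. The cause of these shifts was not tested. Deviations of same-numbered libraries from their group means correlated at 0.24, −0.15 and 0.12 across genes, so the numbers were not taken as pairs. Absolute depth is not known, so no level can be given below which a listed 0 excludes expression.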
